A study of Mus musculus with 22 samples.

Results

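The clustered protocadherins are cell surface adhesion proteins encoded by the α, β and γ gene clusters, which lie one after another on mouse chromosome 18. Their genes were taken as those whose symbol starts with Pcdha, Pcdhb or Pcdhg on that chromosome (build NCBI37/mm9), which gave 25 gene models of 37991 in the RNA-seq tables. Because 1 gene model pools α isoforms and another pools γ isoforms, methylation was read at each variable exon: 58 variable exons were found (14 α, 22 β and 22 γ), of which 41 have an annotated start. These 41 are 10 α, 22 β and 9 γ exons, so summaries over them are mostly of the β cluster. A window of 1 kb to either side of each start was compared with 18907 gene start windows of the same width, the 41 included. For the 17 starts without annotation, and at most annotated α starts, this point is the start of the open reading frame. Most annotated β and γ starts lie upstream of that frame, so the windows are not all centred on the same feature. The spans of the clusters held 229 tiles of 1 kb with enough covered CpGs, of 581457 tested over the genome in E14.5 liver. All of them lie on the plus strand: the α cluster spans chr18:37089939-37347311 (257.4 kb), the β cluster chr18:37424652-37681073 (256.4 kb) and the γ cluster chr18:37821599-38001527 (179.9 kb).

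In the α and γ clusters each variable exon has its own promoter and encodes the extracellular cadherin repeats, the membrane span and part of the cytoplasmic tail, and its transcript is spliced to constant exons shared by the whole cluster. β genes are single exons with no constant part. In neurons each cell uses a small and varied set of these promoters, a choice tied to CpG methylation at the variable exons and to looping by CTCF and cohesin, while the C-type isoforms (Pcdhac1, Pcdhac2, Pcdhgc3, Pcdhgc4 and Pcdhgc5) are used more uniformly.

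The study asked which loci depend on Rlf, a zinc finger protein found in a mutagenesis screen for modifiers of epigenetic silencing. Whole-genome bisulphite sequencing covered 12 libraries in 3 datasets (E10.5 whole embryos and livers of E14.5 and E18.5), each with 2 wild-type (Rlf +/+) and 2 homozygous mutant (Rlf MommeD28/MommeD28) samples, and RNA-seq covered 3 E14.5 livers of each genotype. Every animal, wild types included, was FVB/NJ and homozygous for a multi-copy GFP transgene driven by a human α-globin promoter with the HS-40 enhancer, and MommeD28 is 1 mutant line with a null allele induced by ENU. The 4 E10.5 embryos were labelled male and the 4 E18.5 livers female, and in E14.5 liver replicate 1 was male and replicate 2 female in both genotypes, so tissue and stage cannot be told apart between embryo and liver, and the datasets differ in the mix of sexes. The RNA-seq livers were male for replicates 1 and 2 and female for replicate 3. The 4 H3K4me1 samples of the series were not analysed here.

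Summed over CpGs, bisulphite libraries held 319866478 to 710952704 read counts, with the E14.5 livers the deepest (at least 628996114 each). A read counts once for each CpG it covers. Of lambda cytosines 0.0412 to 0.0775% remained unconverted. Each protocadherin window rested on 168 (Pcdhb9) to 6277 (Pcdhgc3) such counts per library, which is not a number of separate reads. As neighbouring starts were at least 3701 bp apart, no CpG lay in the windows of more than 1 member. RNA-seq libraries held 12928313 to 14621004 counts. The Rlf transcript did not separate the genotypes (918, 1094 and 982 counts in wild type; 983, 1106 and 963 in mutant), so RNA level does not check the labels. In E14.5 liver the 6 hepatoblast markers (Alb, Afp and Hnf4a among them) summed to 53259 to 63861 CPM (counts scaled to the same library size) in wild type and 65632 to 76370 in mutant, and the 6 erythroid markers to 16581 to 33686 and 22928 to 23676. The first sum is mostly Alb and Afp, and no marker of either list was called.

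Most variable exon starts were partly methylated, unlike the usual gene start. A methylation level here is the percent of methylated reads over all CpGs of a window. In wild-type E10.5 embryo the median level was 38.5% over the α exons, 56.2% over the β exons and 27.4% over the γ exons, beside 5.7% over all gene start windows. In wild-type E14.5 liver these medians were 24.7%, 36.4% and 24.9%, beside 6.3%, and in E18.5 liver 30.8%, 41.1% and 30.3%, beside 5.89%. Levels between 20 and 80% were found at 51, 49 and 52 of the 58 starts in the 3 wild-type datasets, that is 87.9%, 84.5% and 89.7%, against 16.6%, 30.9% and 31.0% of all windows. Every β exon lay in that band in each dataset.

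**Figure D1:**
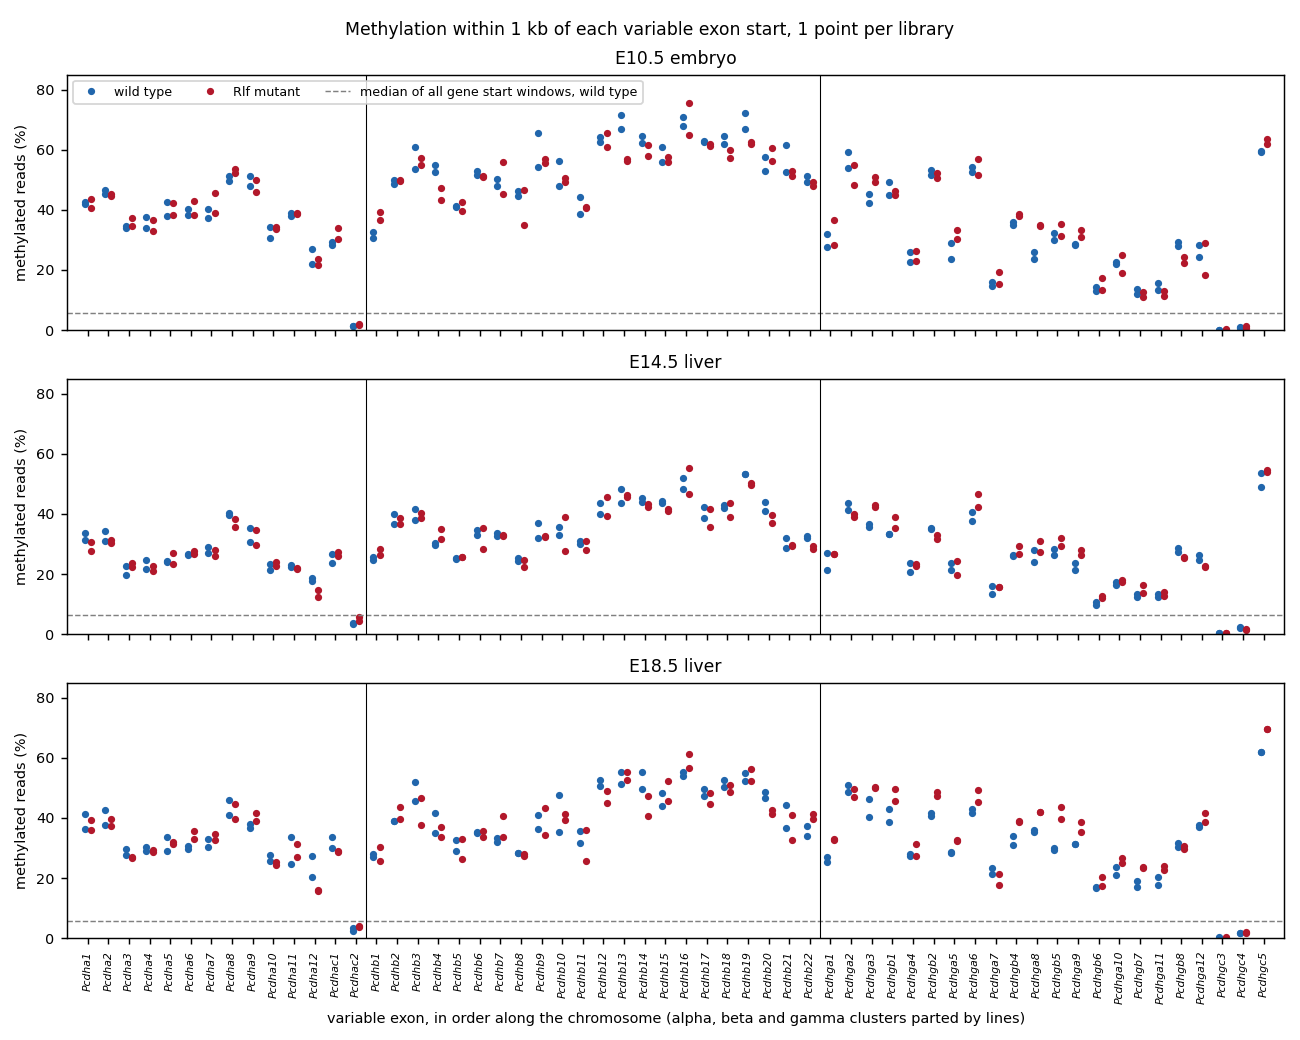
Percent of methylated reads within 1 kb of each of the 58 variable exon starts, in order along the chromosome, with 1 point per library, wild type in blue and Rlf mutant in red, and the wild-type median of all gene start windows as a dashed line. Pcdhac2, Pcdhgc3 and Pcdhgc4 lie near 0 in every library, while the β exons lie above the dashed line throughout.

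Of the starts outside that band, 3 C-type exons were nearly unmethylated. Pcdhgc3 ranged from 0.054 to 0.555% over the 12 libraries and Pcdhgc4 from 0.779 to 2.30%. Pcdhac2 read 1.23 and 1.49% in wild-type E10.5 embryo, 3.42 and 3.87% in wild-type E14.5 liver and 3.46 and 2.55% in wild-type E18.5 liver. These 3 were the lowest of the 58 starts in each dataset, below the level of the median gene start. The remaining starts outside the band lay between 10 and 20%: Pcdhgb6, Pcdhgb7 and Pcdhga11 in all 3 wild-type datasets (13.7%, 12.9% and 14.6% in E10.5 embryo), Pcdhga7 in E10.5 embryo and E14.5 liver (15.4% and 14.6%), and Pcdhga10 (16.8%) and Pcdha12 (18.3%) in E14.5 liver.

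The other C-type exons did not share this state. Pcdhac1 read 28.3 and 29.4% in wild-type E10.5 embryo, 23.8 and 26.8% in E14.5 liver and 30.0 and 33.6% in E18.5 liver, inside the range of the other α exons. Pcdhgc5 was the highest γ exon, with 59.2 and 59.6%, 49.1 and 53.7%, and 61.9 and 61.8%. Its window had a CpG observed to expected ratio of 0.252, against 0.835 for Pcdhgc3, the highest of all 58, and 0.566 for Pcdhgc4.

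Among the α exons the highest mean level was at Pcdha8, with 50.5% ± 1.25 (SD, n = 2) in wild-type E10.5 embryo, 39.9% ± 0.403 in E14.5 liver and 43.6% ± 3.59 in E18.5 liver. Pcdhb19 was at 69.5% ± 3.58, 53.3% ± 0.00677 and 53.6% ± 1.72, the highest β exon in the first 2 datasets, while Pcdhb16 was higher in E18.5 liver (54.7%). Pcdhb1, the first of the cluster, was at 31.6% ± 1.46, 25.3% ± 0.636 and 27.5% ± 0.822, the lowest β exon in E10.5 embryo and E18.5 liver, while in E14.5 liver Pcdhb8 (24.8%) and Pcdhb5 (25.1%) were lower. The rank of exons within a cluster is a description, since neighbours in that order were often no further apart than the replicates.

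CpG content went with level across exons. The CpG observed to expected ratio had a median of 0.631 in the α windows, 0.338 in the β windows and 0.521 in the γ windows, beside 0.533 over all gene start windows, and the median number of CpGs was 55, 29.5 and 54, beside 72. Over the 58 windows the ratio and the wild-type level had a Spearman rho of −0.69 in E10.5 embryo, −0.628 in E14.5 liver and −0.603 in E18.5 liver, and over all gene start windows −0.812, −0.811 and −0.814. Within each cluster rho was weaker than over the 58 windows. It was −0.0462, −0.169 and −0.178 for α, −0.359, −0.211 and −0.264 for β, and −0.436, −0.444 and −0.479 for γ. These are correlations across windows of the same libraries, and windows are not replicates. The letters CGCT, the core of an element found in many of these promoters, occurred on either strand in 58 of 58 windows and in 98.3% of all gene start windows of the same length, so their presence did not set the members apart.

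At the β and γ exons methylation had a trough just upstream of the start and rose into the exon. In the 250 bp before the start, the median over β exons was 16.6% in wild-type E10.5 embryo, 10.1% in E14.5 liver and 11.5% in E18.5 liver, and over γ exons it was 13.8%, 10% and 15.2%. Between 1000 and 1250 bp past the start the β medians were 80%, 59.5% and 66.8% and the γ medians 62.8%, 55.4% and 58.4%. The α medians were 31.0%, 14.1% and 24.3% in the 250 bp before the start and 68.2%, 50.5% and 57.4% between 1000 and 1250 bp past it. Upstream bins rest on fewer α exons, and the bin from 2000 to 1750 bp before the start, with 2 exons, was lower still (29.1%, 7.79% and 17.7%, against the 250 bp before the start). Pcdhac2, Pcdhgc3 and Pcdhgc4 were left out of these medians because their start windows were nearly unmethylated. Distances run from the open reading frame at starts without annotation and at most annotated α starts, so the clusters are not aligned on the same feature.

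**Figure D2:**
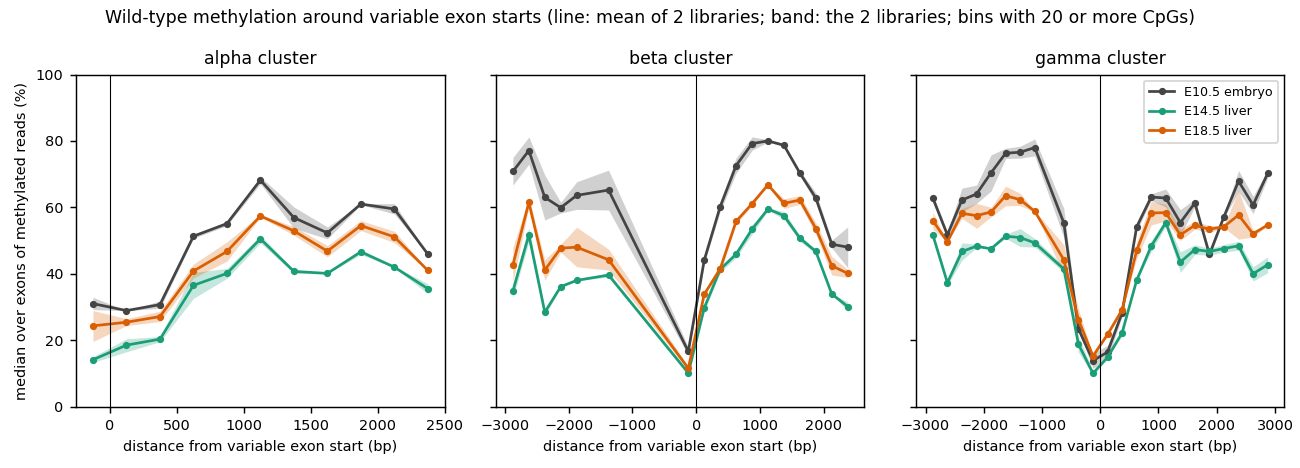
Median wild-type methylation (%) in bins of 250 bp around the variable exon starts of each cluster against distance from the start in bp, with the line at the mean of 2 libraries and the band spanning both. The β and γ clusters show a trough of 10 to 16.6% just before the start in all 3 datasets, and E10.5 embryo lies above E14.5 liver in each bin from the start to 1750 bp past it in all 3 clusters.

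Tiles across the whole spans gave the level outside the variable exons. In wild-type E10.5 embryo the median level was 51.5% over the 179 tiles that touch a variable exon, 71.2% over the 8 tiles at constant exons and 76.4% over the 42 tiles at neither. The constant exon tiles differed by cluster there, at 77.5% over 4 α tiles and 38.3% over 4 γ tiles, the latter no higher than the γ variable exon tiles (39.6%). For E14.5 liver the medians were 38.5%, 54.9% and 59.0%, and for E18.5 liver 46.9%, 58.6% and 65.0%. In the γ cluster the 16 tiles at neither were at 50.9%, 43.9% and 50.7%, below those of the α cluster (83.5%, 61.9% and 69.4%).

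Wild-type E14.5 liver was less methylated than E10.5 embryo at most variable exons. By the quasi-likelihood test of edgeR, with p adjusted over all windows by the Benjamini-Hochberg method, 36 of the 41 annotated starts differed at an adjusted p under 0.05 (34 lower and 2 higher in liver), against a background of 48.9% of all windows called (34.2% lower, 14.6% higher). Of the windows at 20 to 80% methylation over the 12 libraries, 81.9% were called and 77.8% were lower. Their wild-type medians were 77.2%, 56.4% and 61.8% in the 3 datasets, above those of the 41 starts (45.9%, 32.2% and 37.2%). The set is not matched in level to the members, and the α and γ medians lie further below it than the β medians. The first fit, with an estimated negative binomial dispersion, called 31 of the 41. Its share of all windows is not given here, so that count has no background. With the 17 added starts 46 of 58 differed. All 22 β exons were called lower, as were 12 of 14 α and 10 of 22 γ exons. By the mean alone 22 β, 13 α and 19 γ exons were lower, against 11024 of 18906 of all windows and 4825 of the 5387 at 20 to 80%. The median difference was −18.3 percentage points over the β exons, −11.6 over the α exons and −3.73 over the γ exons. For those windows at 20 to 80%, 5387 in all, it was −18.1, close to the β median, and the differences between these medians were not tested.

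The largest falls were all at β genes. Pcdhb21 fell by 26.8 points (57.1% ± 6.18 in embryo, 30.2% ± 2.29 in liver, n = 2 each, edgeR adjusted p = 0.00127), followed by Pcdhb9 (−25.4), Pcdhb4 (−23.9), Pcdhb13 (−23.2), Pcdhb17 (−22.2), Pcdhb12 (−21.5), Pcdhb18 (−20.7) and Pcdhb8 (−20.6). The call at Pcdhb9, the window with fewest reads, was lost without wild-type E10.5 replicate 1 (adjusted p = 0.0591). The 2 rises were small and at C-type exons with almost no methylation: Pcdhac2 by 2.29 points (edgeR adjusted p = 0.00115) and Pcdhgc4 by 1.35 points (adjusted p = 0.0135). A difference over 15 points was reached by 19 of the 41 starts, against 19.6% of all windows and 62.6% of the windows at 20 to 80%.

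Between the liver stages the levels at most exons were higher at E18.5, without passing the test. Of the 41 annotated starts 37 had the higher wild-type mean in E18.5 liver (against 51.5% of all windows and 84.0% of the windows at 20 to 80%), with a median difference of 6.37 points, beside 0.0179 over all windows and 4.92 over the windows at 20 to 80%. None passed in edgeR (background 0.153%), although 23 (against 20.1% of all windows) had an unadjusted p under 0.05. The estimated negative binomial dispersion also gave 0 members, and it called fewer windows in all. The count of 0 at an adjusted p under 0.05 rested on single libraries: it rose when either wild-type E14.5 replicate was left out. These livers also enter the comparison with the embryo.

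Between genotypes, loss of Rlf went with small differences that passed the test at few variable exons. In E10.5 embryo 2 of the 41 annotated starts were called, 1 lower and 1 higher in mutant, against 1.74% of all windows called (higher 1.74%, lower 0.00529%). Both calls were lost when the dispersion was estimated by a negative binomial model, which was the first fit made and called 0 members in each of the 3 datasets. That fit called fewer windows in all, and 0 in E14.5 liver, so 0 members is not a result about the members.

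Pcdhb13, a β gene, stood at 66.8 and 71.4% in wild-type and 56.3 and 56.8% in mutant E10.5 embryos. The groups did not overlap. The difference of −12.6 points (edgeR adjusted p = 0.0386) was the single lower call among 18897 windows. It did not pass with any 1 of the 4 libraries left out (adjusted p 0.0649 to 0.0975), when the direction stayed the same.

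That difference was not seen in liver. Pcdhb13 stood at 48.4 and 43.5% in wild-type and 46.3 and 45.5% in mutant E14.5 liver, and at 51.3 and 55.2% against 55.2 and 52.5% in E18.5 liver, with overlapping groups in both. The difference between datasets had an unadjusted p of 0.00863 in the interaction test and an adjusted p of 1.0.

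Pcdhga8, a γ A-type exon, went the other way. It stood at 26.0 and 23.7% in wild-type and 34.8 and 34.6% in mutant E10.5 embryos, a rise of 9.92 points (edgeR adjusted p = 0.0076), which was still called without each library in turn. In E14.5 liver it stood at 28.0 and 24.0% against 30.9 and 27.4%, which overlap, and in E18.5 liver at 35.3 and 36.1% against 41.9 and 42.0%, which do not. The difference in E18.5 liver was 6.29 points (adjusted p = 0.0774).

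In the livers none of the 41 annotated starts was called by edgeR. For E14.5 liver 0.746% of all windows were called, and the negative binomial dispersion called 0 windows of any kind, members included. There 4 of the 41 had an unadjusted p under 0.05, against 13.7% of all windows. For E18.5 liver 0.846% of all windows were called, and 7 of the 41 had an unadjusted p under 0.05, against 9.15% of all windows. Over all 58 exons 5 had such a p in E14.5 liver and 16 in E18.5 liver, and 14 of the 16 were γ exons. With sex as a term in E14.5 liver, where it coincides with the replicate number, 3 of the 41 were called, against 6.95% of all windows: Pcdhga3 (adjusted p = 0.00254), Pcdha12 (0.00881) and Pcdhga9 (0.0416). With the 17 added starts 1 of 58 was called in E18.5 liver, against 0.851% of all windows.

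That one was Pcdhgb5, a γ B-type exon, which stood at 29.9 and 29.4% in wild-type and 43.6 and 39.7% in mutant E18.5 livers. The groups lay 12 points apart (edgeR adjusted p = 0.0166), with no overlap. The call was lost without mutant replicate 1 (adjusted p = 0.13) and with the negative binomial dispersion (adjusted p = 0.172). In E10.5 embryo it stood at 32.2 and 30.0% against 35.4 and 31.3%, and in E14.5 liver at 28.2 and 26.3% against 32.1 and 29.2%, higher on average by 2.28 and 3.42 points, neither of which passed.

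Other exons with the largest differences did not pass. In E10.5 embryo Pcdhb4 stood at 54.9 and 52.7% in wild type and 47.1 and 43.3% in mutant (edgeR adjusted p = 0.223), and Pcdhb19 at 72.1 and 67% against 61.9 and 62.7% (adjusted p = 0.205). In E14.5 liver Pcdhga6 stood at 40.5 and 37.5% against 46.6 and 42.4%, and Pcdhb20 at 43.9 and 40.8% against 37.1 and 39.6%. In E18.5 liver Pcdhgb2 stood at 41.5 and 40.8% against 48.7 and 47.4%.

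Pcdha12, an α exon, was lower in mutant by 1.69 points in the embryo and by 4.91 and 7.90 points in E14.5 and E18.5 liver. Its libraries read 26.9 and 21.9% in wild type and 23.6 and 21.7% in mutant embryo, 17.7 and 18.8% against 14.6 and 12.2% in E14.5 liver, and 27.5 and 20.4% against 15.8 and 16.2% in E18.5 liver. The groups overlapped in neither liver set. The edgeR adjusted p was 0.836, 0.163 and 0.132, and the E18.5 difference rested on single wild-type libraries: it was −4.33 points without replicate 1 (adjusted p = 0.895) and −11.5 without replicate 2 (adjusted p = 0.00167).

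**Figure D3:**
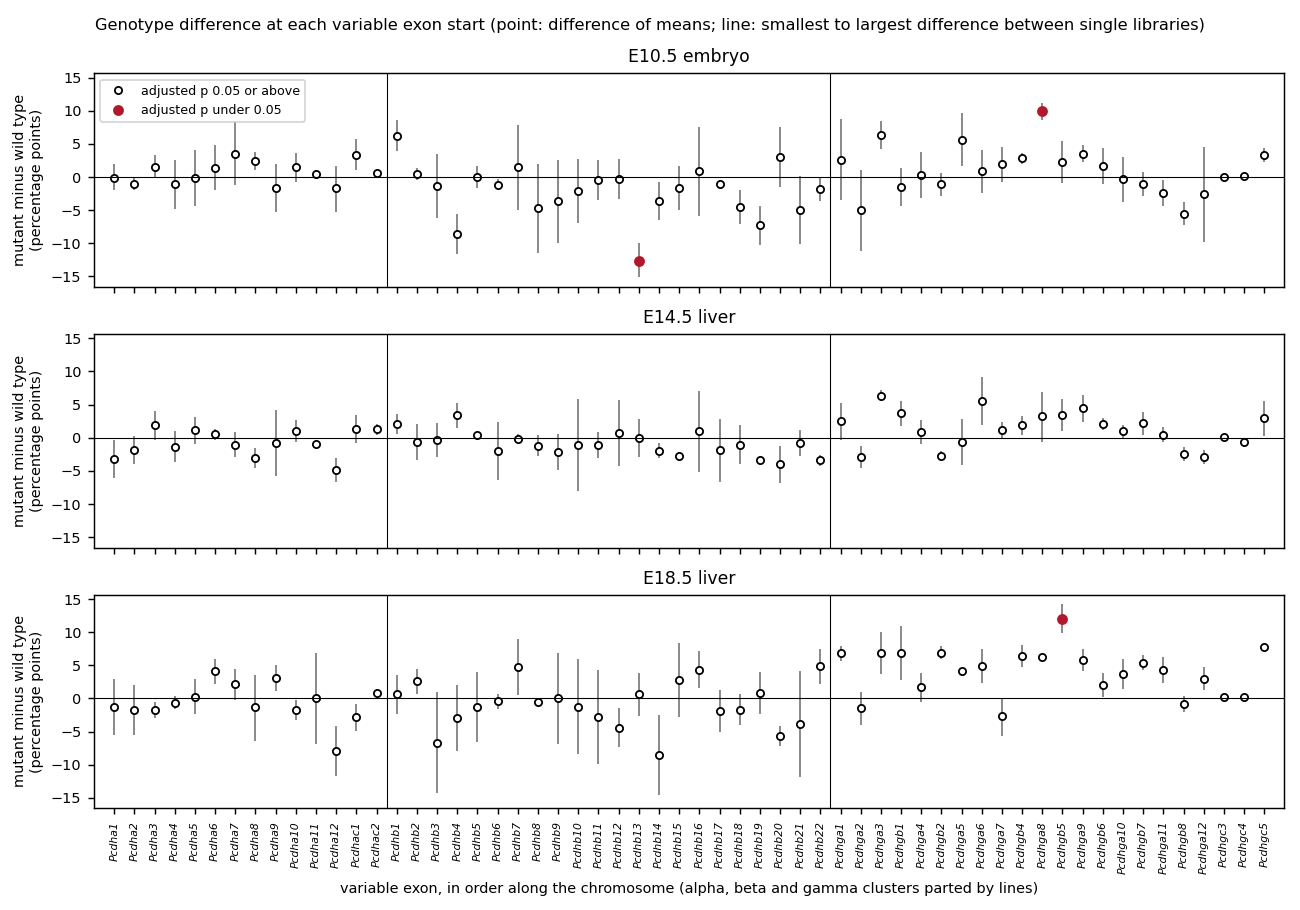
Mutant minus wild-type methylation in percentage points at each of the 58 variable exon starts in the 3 datasets, with a point at the difference of group means and a line from the smallest to the largest difference between single libraries; filled points have an adjusted p under 0.05. Filled points are Pcdhb13 (−12.6) and Pcdhga8 (+9.92) in E10.5 embryo and Pcdhgb5 (+12) in E18.5 liver, and 19 of 22 γ exons lie above 0 in E18.5 liver.

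In E18.5 liver most γ exons had the higher mean in mutant, and the clusters were not tested against each other. Of 22 γ exons 19 were higher, against 64.8% of all windows and 76.3% of the windows at 20 to 80%, with a median difference of 4.63 points. Of these exons 14 had an unadjusted p under 0.05, against 9.15% of all windows and 673 of the 5387 windows at 20 to 80%. Both mutants lay above both wild types at 17, against 28.0% of all windows and 37.1% of the windows at 20 to 80%. None had both below, against 10.8% and 5.53%. Over all windows the median difference was 0.204 points and over the windows at 20 to 80% it was 2.53, the former 0.00567 without mutant replicate 1 and 0.463 without mutant replicate 2. With each library left out in turn the γ median was 4.12 to 4.93, while the median over the windows at 20 to 80% rested on single mutant libraries: it was 0.881 without mutant replicate 1, where the γ median was 4.37, and 4.3 without mutant replicate 2, where the γ median was 4.93. The β exons had a median of −0.923 and the α exons of −0.991, and each changed sign when 1 library was left out: β to 0.143 without mutant replicate 2, α to 0.998 without wild-type replicate 1.

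In the other datasets the γ medians were smaller, and the β medians slightly larger in size, than in E18.5 liver. For γ exons they were 0.602 in E10.5 embryo and 1.5 in E14.5 liver. Above without overlap were 6 and 11 of 22 exons, against 35.2% and 36.8% of all windows and 38.7% and 39.9% of the windows at 20 to 80%. Below were 2 and 5, against 7.39% and 8.56% of all windows and 7.52% and 5.81% of the windows at 20 to 80%. The γ median was −0.0257 without mutant replicate 1 and 1.45 without mutant replicate 2 in E10.5 embryo, and 0.619 in E14.5 liver without wild-type replicate 2. For β exons the medians were −1.49 and −1.06, with 7 and 5 of 22 exons below without overlap and 1 and 3 above. Of 14 α exons 0 and 4 lay below and 3 and 1 above. The β median was −0.321 without wild-type replicate 1 and −2.65 without wild-type replicate 2 in E10.5 embryo, and in E14.5 liver 0.306 without mutant replicate 2, −2.34 without mutant replicate 1 and −1.61 without wild-type replicate 1. The α medians were 0.506 and −0.855, the first 0.137 without mutant replicate 1 and 1.08 without wild-type replicate 2, the latter 0.544 without wild-type replicate 2 and 0.0555 without mutant replicate 1. Over the 41 annotated starts, 22 of them β and 9 γ, the medians were −0.454, −0.667 and 0.00609 in the 3 datasets. Over all 58 exons they were −0.114, −0.216 and 0.426, against 1.84, 2.12 and 2.53 over the windows at 20 to 80%. In E14.5 liver that last median was 0.996 without wild-type replicate 1 and 3.25 without wild-type replicate 2.

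The same order of genotypes in every dataset was about as frequent at these exons as elsewhere for rises. Both mutants lay above both wild types in all 3 datasets at Pcdhac2, Pcdhga3, Pcdhgb4, Pcdhga9 and Pcdhgc5, 5 of 58 or 8.62%, against 7.95% of all windows. The reverse order held at Pcdhb14, 1 of 58 or 1.72%, against 0.338%. For the mean alone, 15 of 58 exons were lower in mutant in all 3 datasets (25.9%, against 6.03% of all windows) and 15 were higher (25.9%, against 38.5%).

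Pcdhga3 had nearly the same difference each time. It stood at 42.3 and 45.1% in wild type and 49.3 and 50.8% in mutant E10.5 embryo, at 36.7 and 35.6% against 42.8 and 42.3% in E14.5 liver, and at 46.3 and 40.2% against 50.2 and 50% in E18.5 liver. The differences were 6.41, 6.36 and 6.87 points, with edgeR adjusted p of 0.126, 0.0905 and 0.213.

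Pcdhga9 stood at 28.6 and 28.4% against 33.3 and 30.8%, at 23.8 and 21.5% against 26.2 and 28.0%, and at 31.3 and 31.3% against 38.7 and 35.5%. For Pcdhgc5 the mutants were at 61.8 and 63.6%, 53.9 and 54.7%, and 69.7 and 69.7%, higher on average by 3.30, 2.96 and 7.83 points, and the E18.5 difference was −0.986 in the narrower window of 500 bp to either side. Pcdhb14 stood at 62.2 and 64.5% against 58 and 61.5%, at 44.0 and 45.4% against 43.2 and 42.3%, and at 55.4 and 49.8% against 47.3 and 40.8%, and none of the differences at these 3 exons passed, other than Pcdhga9 in E14.5 liver with sex as a term.

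Among the C-type exons near 0, Pcdhac2 was at 1.76 and 2.07% in mutant embryo, 4.32 and 5.56% in mutant E14.5 liver and 3.98 and 3.73% in mutant E18.5 liver, higher than wild type by 0.554, 1.29 and 0.849 points (edgeR adjusted p 0.501, 0.321 and 0.621). Pcdhac1 in mutant read 30.4 and 34.1%, 27.3 and 26.0%, and 29.1 and 28.7%.

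In the test of whether the genotype difference varied between datasets (an interaction term with 1 spread over the 12 libraries), 0 of 18907 windows were called by edgeR (0.0%), with 716 (3.79%) at an unadjusted p under 0.05, among them 4 of the 41 members, and the negative binomial dispersion also called 0. Across the 58 exons the genotype differences of 2 datasets had a Pearson r of 0.414 (E10.5 embryo and E14.5 liver), 0.353 (E10.5 embryo and E18.5 liver) and 0.507 (E14.5 and E18.5 liver), with Spearman rho of 0.519, 0.332 and 0.423. Over all windows r was 0.462, 0.442 and 0.518, and rho was 0.314, 0.286 and 0.383. Exons of a cluster share libraries, so these are given as descriptions.

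Tiles of 1 kb gave the genotype differences across the spans, also beyond the start windows. Some tiles given below, such as that in the Pcdhgb5 exon and the last of Pcdhb13, lie outside the start window of their exon. At an adjusted p under 0.05 with a difference above 15 points, 1 of the 229 tiles was called in E10.5 embryo (background 0.467%, lower 0.00465%), 0 in E14.5 liver (0.179%) and 0 in E18.5 liver (0.256%), with 39, 35 and 38 tiles at an unadjusted p under 0.05 (against 11.4%, 10.1% and 8.05% of all tiles). In the negative binomial fit 21, 21 and 14 of the 229 had such a p. Over all tiles these were 63205 of 581259, 57037 of 581457 and 44571 of 581318, so the shares of the 229 were no higher. By adjusted p alone, a rule added after the data were seen, edgeR called 11, 5 and 4 (backgrounds 1.34%, 0.776% and 0.489%), of which 7, 3 and 3 were higher in mutant (backgrounds 1.31%, 0.741% and 0.466%). With the estimated negative binomial dispersion these became 2, 1 and 0 tiles (backgrounds 0.727%, 0.595% and 0.237%), so the tile calls given next by adjusted p alone are lost in that fit, except at the last Pcdhb13 tile and the Pcdhgc4 tile in E10.5 embryo and the Pcdhga10 tile in E14.5 liver.

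The fall at Pcdhb13 ran along the whole exon in E10.5 embryo. The tile centred 330 bp past the start stood at 74.5 and 76.5% in wild type and 63.6 and 65.4% in mutant (−11.0 points, edgeR adjusted p = 0.0147, and 0.102 without mutant replicate 1). The next, at 1330 bp, stood at 74.8 and 77.4% against 66.8 and 63.6% (−10.9, adjusted p = 0.000635). The last, at 2330 bp, stood at 51.2 and 50.7% against 35.3 and 34.1% (−16.2, adjusted p = 0.00107, and 0.0201 with the negative binomial dispersion), and both of these were still called without each library in turn. In E14.5 liver the same tiles differed by 0.301, 1.79 and 1.22 points, and in E18.5 liver by −0.185, 3.05 and −11.0, none of which passed.

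A tile inside the Pcdhgb5 exon (chr18:37892001-37893000, 76 CpGs, centred 1693 bp past the start) had an adjusted p under 0.05 in all 3 datasets, with differences under 15 points. It stood at 35.7 and 33.1% in wild type and 42.1 and 41% in mutant E10.5 embryo (+7.11 points, edgeR adjusted p = 0.00195). It stood at 31.7 and 30.1% against 35.8 and 36.3% in E14.5 liver (+5.15, adjusted p = 0.0103), and at 34.9 and 38.8% against 50.1 and 44.7% in E18.5 liver (adjusted p = 2.85e-08). The mutants lay above the wild types each time, and without wild-type replicate 1 the E18.5 call was lost (adjusted p = 0.063). With the negative binomial dispersion the adjusted p was 0.513, 0.572 and 0.476.

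Other γ tiles with an adjusted p under 0.05 were higher in mutant. The first tile of Pcdhga8 rose by 7.58 points in E10.5 embryo (edgeR adjusted p = 0.0103), and a tile in the Pcdhgb6 exon by 4.93 points there (adjusted p = 0.0311) and 5.57 in E18.5 liver (adjusted p = 0.0481). A tile in the Pcdhgb7 exon stood at 33.6 and 35.0% in wild type and 45.0 and 42.4% in mutant E18.5 liver (+9.39, adjusted p = 2.65e-05), while in E10.5 embryo and E14.5 liver it differed by −0.265 and 0.173. In E14.5 liver the tile centred 512 bp past the Pcdhga3 start rose by 7.07 points (adjusted p = 0.0115). A tile of 15 CpGs at the end of the Pcdhga10 exon stood there at 21.7 and 20.6% against 34.0 and 29.1% (adjusted p = 0.0295, and 0.0368 with the negative binomial dispersion), a call lost without mutant replicate 1 (0.821) or mutant replicate 2 (0.0977).

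In E10.5 embryo some of the largest rises lay at the 3′ end of the γ cluster. Outside it, an α tile at the Pcdha10 start rose by 11.5 points in the same embryos (edgeR adjusted p = 0.227). A tile in the Pcdhgc4 exon stood at 62.3 and 66.6% in wild type and 77.8 and 79.3% in mutant (+14.1, edgeR adjusted p = 0.00867, 0.0339 with the negative binomial dispersion, and 0.127 without wild-type replicate 1 or 0.0781 without mutant replicate 2), although the start of that exon was unmethylated. A tile of 10 CpGs outside the exons, 10301 bp past the Pcdhgc5 start, stood at 40.7 and 50.4% against 59.0 and 65.1% (+16.5, adjusted p = 0.0501). A tile 17301 bp past that start rose by 11.4 points (adjusted p = 0.041). In E18.5 liver the largest rise was at a γ constant exon tile of 8 CpGs, with 16.8 and 24.3% against 29.7 and 35.3% (+12 points), but its adjusted p was 0.484.

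In the α cluster the tile centred 617 bp past the Pcdha12 start was lower in mutant liver. It stood at 18.8 and 20.3% in wild type and 14.9 and 13.2% in mutant E14.5 liver (−5.50, edgeR adjusted p = 0.0261), and at 29.0 and 23.2% against 17.2 and 16.8% in E18.5 liver (−9.06, adjusted p = 0.00145). In E10.5 embryo it stood at 28.6 and 23.2% against 24.9 and 22.3% (−2.32, adjusted p = 0.764). With the negative binomial dispersion the liver values were 0.195 and 0.258. The tile that holds the start differed by −2.61 and −1.76 points in the livers and did not pass (adjusted p 0.782 and 0.914). The next tile of that exon fell by 5.07 points in E14.5 liver (adjusted p = 0.0463). In E10.5 embryo a tile in the Pcdhac1 exon rose by 8.73 points (adjusted p = 0.025), 1 at the Pcdhb1 start rose by 6.89 (adjusted p = 0.0449), and 1 outside the exons, 5950 bp past the Pcdha7 start, fell (adjusted p = 0.04).

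**Figure D4:**
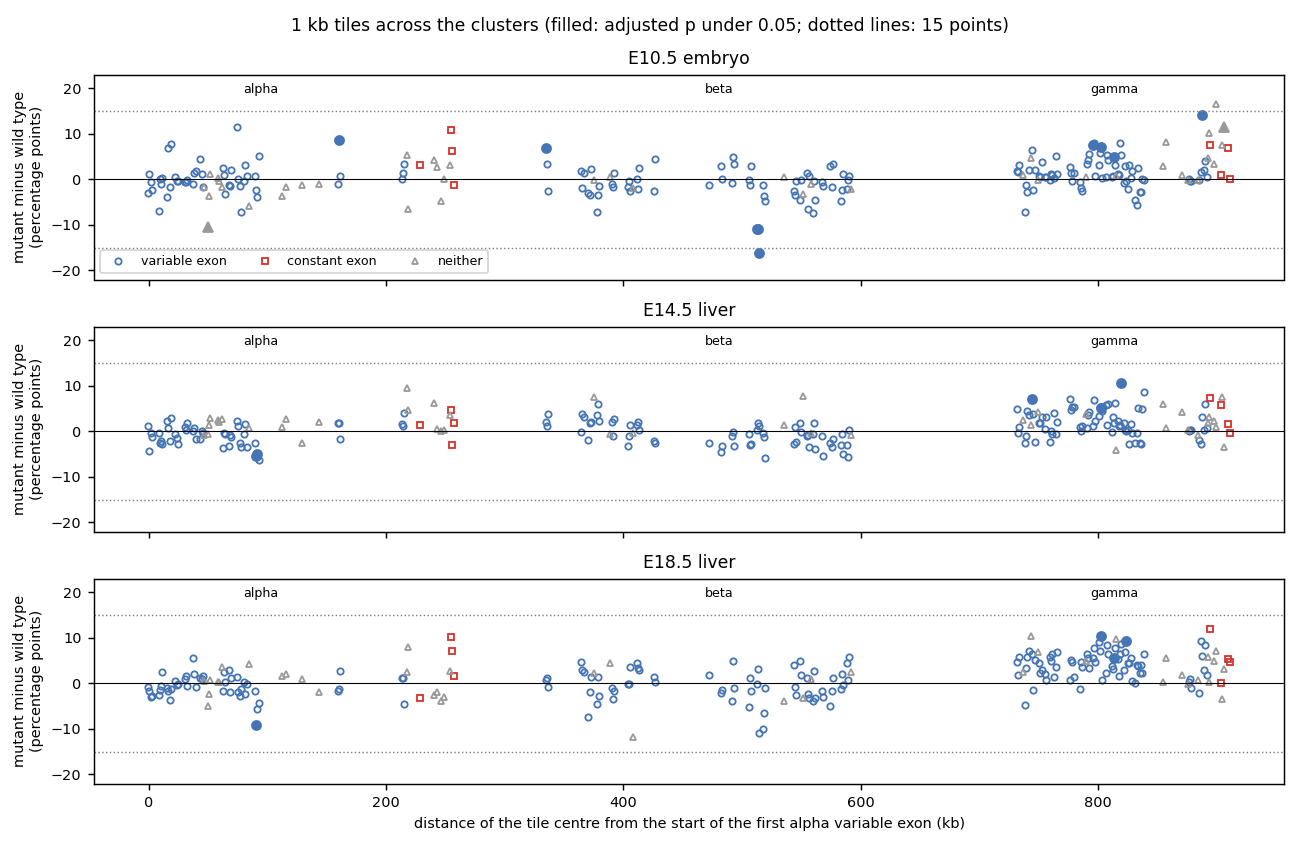
Mutant minus wild-type methylation in percentage points of the 229 tiles of 1 kb against their distance in kb from the first α variable exon, with 1 symbol for each kind of tile; filled symbols have an adjusted p under 0.05 and dotted lines mark 15 points. The Pcdhb13 tiles form the low group in the β cluster of E10.5 embryo, and 85 of 92 γ tiles lie above 0 in E18.5 liver.

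Over whole clusters, 68, 72 and 85 of the 92 γ tiles had the higher mean in mutant, in order of stage, with median differences of 1.19, 1.75 and 4.58 points, beside 67.5%, 73.7% and 72.2% of all tiles higher. The β tiles had medians of −1.18, −0.592 and −0.21 and the α tiles of −0.271, 0.103 and −0.275. For all tiles over the genome the medians were 1.13, 1.74 and 2.01. In the livers these rested on single libraries: the E14.5 median was 0.518 without wild-type replicate 1 and 2.97 without wild-type replicate 2, and the E18.5 median was 0.334 without mutant replicate 1 and 3.8 without mutant replicate 2.

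In E14.5 liver the clustered protocadherin genes other than the γ model had few or no counts. Of 25 gene models 19 had under 10 counts in each library, Pcdha3 and Pcdhb1 were at 0 in all 6, and 4 passed the filter on low counts and were tested. The counts do not resolve α or γ isoforms and were made without strand. They may be inaccurate for near-identical β genes, so values of single β genes are uncertain. In bulk liver, fewer cells of a type and less RNA per cell cannot be told apart.

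The γ gene model, which takes the reads of the shared constant exons and of the 9 γ variable exons in the annotation, but not of the other γ variable exons, had 531, 746 and 739 counts in wild type and 659, 749 and 892 in mutant. The groups overlapped. At 47.2 ± 5.93 and 55.9 ± 5.96 CPM (SD, n = 3 each) its log2 fold change was 0.24 (SE 0.10, edgeR adjusted p = 0.289, and 0.0754 with the replicate number as a block). Per kb of exon its level was 1.63 CPM in wild type, against 0.0067 for the α gene model, which had 1, 0 and 6 counts in wild type and 2, 2 and 1 in mutant.

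Among the β genes Pcdhb22 had the most reads, 15, 18 and 21 counts in wild type and 32, 21 and 31 in mutant. Scaled to library size these were 1.14, 1.19 and 1.47 CPM in wild type and 2.48, 1.51 and 2.17 in mutant, which do not overlap. The log2 fold change of 0.69 (SE 0.27) did not pass in edgeR (adjusted p = 0.26). Pcdhb17 had 11, 8 and 12 counts against 16, 2 and 16 (log2 fold change 0.18, adjusted p = 0.914). Pcdhb16 had 5, 12 and 9 against 13, 7 and 12 (0.35, adjusted p = 0.737), and Pcdhb19, which was too low to be tested, 5, 8 and 10 against 8, 11 and 13. In CPM 4 of the 23 members with any count had all mutants above all wild types (against 8.49% of genes with a count) and 1 had all below (against 7.46%). Besides Pcdhb22 these were Pcdhb18 (2, 0 and 2 counts against 7, 5 and 10), Pcdhb15 (1, 0 and 1 against 2, 2 and 4) and Pcdhb9 (0, 0 and 1 against 1, 1 and 1), and, lower, Pcdhb4 (2, 1 and 3 against 0 in each mutant). All but Pcdhb22 were too low to be tested, and with no filter on low counts the edgeR adjusted p of Pcdhb18 was 0.0919. At Pcdhb9 replicate 3 of each genotype had 1 count and 0.0701 CPM, so its order rests on library scaling alone.

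None of the 4 tested members was called, against 1.39% of the 14183 genes tested (197 genes, 99 higher and 98 lower), with 2 members at an unadjusted p under 0.05, against 14.6% of all genes tested. DESeq2 also called 0. With the replicate number as a block 460 genes were called (3.24%) and again 0 members. Summed over the 22 β genes there were 65, 82 and 94 counts in wild type and 107, 70 and 117 in mutant, which overlap. Across the 22 β genes, CPM and window methylation had a Spearman rho of 0.141 in wild type and 0.225 in mutant and a Pearson r of 0.201 and 0.145, over few reads.

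**Figure D5:**
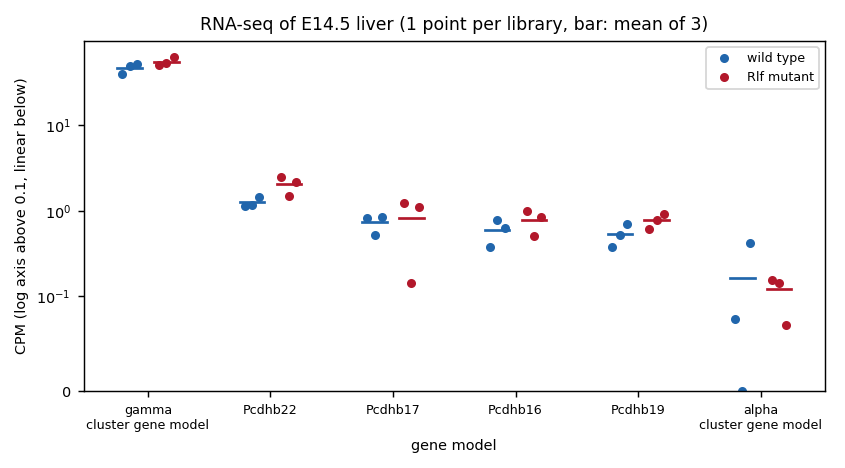
CPM of the 5 gene models with the highest mean and of the α gene model in the 6 E14.5 liver libraries, on an axis that is logarithmic above 0.1 CPM and linear below, with bars at the mean of 3. The γ model lies above all β genes shown, and the mutant points lie above the wild-type points at Pcdhb22 (lowest mutant 1.51, highest wild type 1.47) and overlap with them at the other models shown.

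The other genes of the pathway were read from 3 lists. Of 13 other protocadherin genes 6 were tested and 1 rose: Pcdh7, a non-clustered protocadherin, with 57, 67 and 93 counts in wild type and 114, 116 and 143 in mutant (log2 fold change 0.83, SE 0.17, edgeR adjusted p = 0.0372). The median log2 fold change of these 6 was 0.27, beside −0.00171 over all genes. Of 19 regulators of the clusters, all tested, 1 rose: Dnmt3a, a de novo DNA methyltransferase, with 1327, 1641 and 1644 counts against 1751, 1930 and 1868 (log2 fold change 0.32, SE 0.06, adjusted p = 0.0319). Ctcf, which binds the variable exon promoters, had a log2 fold change of −0.08 (adjusted p = 0.645). The median of this list was 0.00277, and that of 15 partners of the proteins was 0.03. None of the partners was called by edgeR, and 2 had an unadjusted p under 0.05, against 14.6% of all genes tested.

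Markers of other cell types in the liver moved with genotype in some lists, and their part in the values above was not tested. Of 5 macrophage markers 1 was called, Cd5l, which fell (log2 fold change −1.19, edgeR adjusted p = 0.00187), while 3 had the higher mean in mutant, and they summed to 244 to 282 CPM in wild type and 182 to 218 in mutant. Of 4 granulocyte markers 2 fell, Ngp (−0.93, adjusted p = 0.0143) and Elane (−0.76, adjusted p = 0.0493), while Mpo (0.13) and Prtn3 (−0.02) did not pass, and the sums were 425 to 598 and 401 to 476. All 4 megakaryocyte markers were higher, of which Pf4 passed (0.40, adjusted p = 0.0143) and Itga2b passed with the replicate block (adjusted p = 0.0322, and 0.0687 without it), and the sums were 456 to 478 and 541 to 604. The 8 nerve and glia markers, the cells in which clustered protocadherins are best known, summed to 6.34 to 12.5 CPM in wild type and 8.45 to 11.4 in mutant, with 2 of 8 tested and 0 called, and Snap25 was at 0 in 4 of the 6 libraries. The 7 mesenchyme markers summed to 802 to 1043 CPM in wild type and 870 to 1289 in mutant, and the 4 smooth muscle markers to 23.9 to 34.8 and 34.7 to 45.0. The 6 endothelium markers summed to 267 to 294 and 297 to 347. All 6 were higher in mutant, 4 with an unadjusted edgeR p under 0.05, against 14.6% of all genes tested. The 4 mesothelium markers summed to 23.2 to 25.7 and 20.8 to 22.6, and 0 were called in each of these 4 lists.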

How the data were processed

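The bisulphite files give, per CpG, the methylated and the unmethylated read count together with a rounded percent. The authors made them with Bismark (Bowtie2), aligned to mm9 carrying FVB substitutions, removed duplicates and merged strands before these counts were deposited. The deposited percent was not used. For RNA-seq the authors deposited raw counts per Ensembl gene (Tophat and htseq-count, without strand).

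Variable exons were located on NCBIM37 with GENCODE vM1 as open reading frames of at least 1800 bp in the cluster spans. The 17 without an annotated transcript entered only added fits. β names come from the annotation, and α and γ isoform names follow RefSeq order. Windows and tiles needed 8 CpGs, each covered by 6 or more reads in every one of the 12 libraries.

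Methylated and unmethylated counts were tested with edgeR 4.0.16 in R 4.3.3 (quasi-likelihood, 1 intercept per library, dispersion 0), Benjamini-Hochberg adjusted over all windows or tiles. A first fit estimated a negative binomial dispersion and was weak when tested on simulated data. The dispersion of 0 replaced it after the results of the first fit on these data had been seen, several forms having been tried, and it makes more calls, so calls that rest on it are given with the first fit. RNA counts were tested with edgeR (TMM, default filter on low counts) and with DESeq2 1.42.0. Deviations from group means correlated between RNA libraries of the same replicate number (0.125, 0.226 and 0.409 over 14183 genes). These libraries also share sex, and those of unlike number were not compared, so pairing is not shown. The labels do not state a shared source. Litters other than that of the E14.5 bisulphite livers are not given in the sources used here, so p-values measure the spread between samples only.

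Named members are those called (at most 8 per comparison), the 5 largest genotype differences per dataset, the 5 highest in RNA, the C-type exons, the extremes of level and the extreme tiles. Members with the same order of genotypes in all datasets, Pcdha3, Pcdhb4, Pcdhb9, Pcdhb15 and Pcdhb18 in RNA, the markers named, and tiles called by adjusted p alone were named after their values were seen. The members, gene lists and marker lists were chosen with earlier results of these data known. The reads of a window bound the precision of its level. The counts summed over CpGs can overstate their number, and no interval was computed. Figures were drawn with matplotlib 3.10.9, pandas 2.3.3 and numpy 2.4.6 in python 3.11.15.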

Additional observations from a re-analysis of the deposited data

How the results depend on the processing

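With 2 libraries a group, calls at single exons turned on the fit. With an estimated negative binomial dispersion, members called in E10.5 embryo fell from 2 to 0, and windows called from 329 to 205 (E10.5 embryo), 141 to 0 (E14.5 liver), 160 to 96 (E18.5 liver) and 29 to 4 (liver stages). The replicate block gave 4, 3 and 2 members and 1309, 1314 and 337 windows, with Pcdhga3 called in E10.5 embryo and E14.5 liver (adjusted p = 0.0162 and 0.00254) and Pcdha12 in both livers (0.00881 and 0.0157). Bisulphite replicate numbers did not pair the samples (correlations 0.0694, 0.501 and −0.0318, the second −0.0301 on autosomes, where replicate number is sex). Leaving out 1 library gave 1 member and 128 to 519 windows in E10.5 embryo, 0 to 14 windows in E14.5 liver, 0 to 1 members and 105 to 219 windows in E18.5 liver, and 0 to 11 members and 0 to 1967 windows between the liver stages. In E18.5 liver 1 member was called with the 17 added starts, with 10 reads per CpG or with windows of 2 kb to either side (Pcdha12, adjusted p = 0.0249, in the last). Windows of 500 bp called 57 (E14.5 liver), 5590 (embryo against liver) and 5 (liver stages), and those of 2 kb 215 in E14.5 liver and, between the liver stages, 64 and 5 members. The fit on all 12 libraries called 231 windows and 5 members between the liver stages. For tiles, a minimum of 10 points gave 6, 1 and 1 members and 6126, 3245 and 2266 tiles, against 2715, 1043 and 1487. Adjusted p alone gave 11, 5 and 4 members and 7779, 4511 and 2840 tiles, or 2, 1 and 0 and 4226, 3460 and 1376 with the negative binomial dispersion, which gave 894 tiles in E18.5 liver at 15 points, the block 2 members in E10.5 embryo, and leaving out 1 library 1 to 3 members (E10.5 embryo), 0 to 1 (E18.5 liver) and 1831 to 5420, 895 to 2554 and 411 to 6460 tiles. RNA calls went from 197 to 532 with no filter, 460 with the replicate block and 66 to 224 without 1 library, with 0 members throughout. Directions reversed for Pcdhgc5 in E18.5 liver at 500 bp (−0.986 points) and for Pcdhb17 RNA without wild-type replicate 2 (log2 −0.02), mutant replicate 1 (−0.19) or mutant replicate 3 (−0.11), with 0.685 at most, without mutant replicate 2. The cause was not tested for any of these. For RNA, 19 of 25 gene models (17 β and both α) were under 10 counts in each library.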
